A study of Mus musculus with 15 samples.

Results

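The Ms4a genes encode a family of small proteins that cross the cell membrane several times, and 7 of them (Ms4a7, Ms4a6d, Ms4a6c, Ms4a4c, Ms4a6b, Ms4a4b and Ms4a1) are described here in mouse lung. They were found by gene name among the 57010 genes of the expression tables, which hold 21 genes named Ms4a, and each of the 7 names matched 1 gene. The rule selected on the names alone, but the names were proposed with earlier results of these libraries known and the values weighed then are not recorded, so levels and differences of the 7 genes are given as a description. Where members passed the threshold of a fit across all genes, their count stands beside the share of all genes that passed, and nothing is read from it. RNA of lung tissue was sequenced from C57BL/J mice on day 30. The silica_DMSO group (n = 4, replicates 2, 4, 5 and 6) had silica suspension given as nasal drops and a DMSO solution on the second day. The silica group (n = 3, replicates 1, 2 and 7) had silica, the DMSO group (n = 4, replicates 1, 4, 6 and 7) had the DMSO solution, a common solvent, and the control group (n = 4, replicates 1, 2, 4 and 7) had physiological saline. The labels name no engineered allele and give no age.

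Ms4a proteins keep both ends inside the cell and sit beside immune receptors, whose signalling several of them adjust. Most members are carried by blood and tissue leukocytes, and different members mark different lineages, so that in a whole lung their transcripts follow the resident and incoming immune cells. In bulk tissue fewer cells of a type and less RNA per cell cannot be told apart. Inhaled crystalline silica is taken up by lung macrophages and is known for lasting inflammation in mice and people.

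Libraries held 17434649 to 20829960 counts, and they fell into 3 kinds that cut across the groups. Libraries DMSO 7, silica_DMSO 4 and silica_DMSO 6 held 2541 to 3876 CPM (counts scaled to the library total) of Rag1, a recombinase gene of developing lymphocytes, against at most 0.224 CPM in the other 12. In these 3 libraries, called thymus libraries here, a list of 16 T cell genes summed to 9037 to 13406 TPM (transcript levels scaled for gene length and library total), against 106 to 370 TPM elsewhere, and a list of 8 lung epithelial genes summed to 2860 to 69663 TPM, against 95501 to 409140 TPM elsewhere. Libraries silica_DMSO 5, silica 7, DMSO 1, DMSO 4 and control 1 had 11.5% to 24.2% of their counts in genes over 3000 bases and are called short-gene libraries, while the 7 long-gene libraries had 34.0% to 44.9%. The part of these library kinds in any difference between groups was not tested, and values are given with and without the thymus libraries. As Rag1 and the long genes set the kinds, ranges by kind for T cell genes and long genes were partly fixed by the grouping. How many of all genes part the kinds was not counted.

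The 7 genes lie on chromosome 19 within 1 run of Ms4a genes, in the order Ms4a1, Ms4a7, Ms4a4c, Ms4a4b, Ms4a6c, Ms4a6b and Ms4a6d (RefSeq, GRCm38.p6), with other Ms4a genes between some of them. The longest exact run shared by a transcript of Ms4a4b and of Ms4a4c was 127 bases (GENCODE M21 transcripts), by Ms4a6b and Ms4a6c 96 bases, and by Ms4a6b and Ms4a6d 81 bases. Ms4a7 shared no run longer than 13 bases with the other members. Windows of 50 bases that also occur in another Ms4a gene made up 8.48% of the Ms4a4c transcript, 6.08% of Ms4a6c, 5.66% of Ms4a6b, 4.19% of Ms4a4b and 2.92% of Ms4a6d, and none of Ms4a7 or Ms4a1. Genes outside the family were not searched for these windows. In the deposited counts Ms4a6c had an expected count that was not a whole number in 14 of 15 libraries and Ms4a6b in 8 of 15. Ms4a7 and Ms4a1 had whole counts in all 15, and Ms4a4b, Ms4a4c and Ms4a6d had fractions in 3, 2 and 2 libraries. The fractions did not follow the order of the shared windows, as Ms4a4c had the most windows shared. Among all genes 20.1% to 24.2% of a library's nonzero values were fractions. Whether shared sequence gave the fractions of the members was not tested. Values of Ms4a6b, Ms4a6c, Ms4a6d, Ms4a4b and Ms4a4c are uncertain to the extent that reads were split among copies.

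Relatedness extends upstream of the genes for the pairs Ms4a4b and Ms4a4c, and Ms4a6b and Ms4a6c, whose 250 bases before the RefSeq start site are shown to set sequence likeness beside the likeness of levels described below. Capitals mark the longest exact run the 2 promoters of a pair share, and the windows are chr19:11443308-11443557 for Ms4a4b, chr19:11407411-11407660 for Ms4a4c, chr19:11518309-11518558 for Ms4a6b and chr19:11469118-11469367 for Ms4a6c, each on the plus strand of GRCm38.p6.
Ms4a4b: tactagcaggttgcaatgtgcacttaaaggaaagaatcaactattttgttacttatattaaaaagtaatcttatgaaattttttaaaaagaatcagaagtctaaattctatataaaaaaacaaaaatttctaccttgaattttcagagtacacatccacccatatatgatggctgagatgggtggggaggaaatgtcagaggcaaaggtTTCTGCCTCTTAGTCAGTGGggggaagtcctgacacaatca
Ms4a4c: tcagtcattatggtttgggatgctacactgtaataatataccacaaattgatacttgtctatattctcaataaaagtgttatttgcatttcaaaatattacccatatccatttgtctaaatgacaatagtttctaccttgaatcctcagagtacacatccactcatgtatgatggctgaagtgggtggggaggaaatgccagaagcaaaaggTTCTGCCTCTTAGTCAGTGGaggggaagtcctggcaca
Ms4a6b: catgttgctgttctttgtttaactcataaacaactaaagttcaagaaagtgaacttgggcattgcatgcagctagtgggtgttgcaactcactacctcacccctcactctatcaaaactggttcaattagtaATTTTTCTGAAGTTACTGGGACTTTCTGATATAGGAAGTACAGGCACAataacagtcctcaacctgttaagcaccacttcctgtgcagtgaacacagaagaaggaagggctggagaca
Ms4a6c: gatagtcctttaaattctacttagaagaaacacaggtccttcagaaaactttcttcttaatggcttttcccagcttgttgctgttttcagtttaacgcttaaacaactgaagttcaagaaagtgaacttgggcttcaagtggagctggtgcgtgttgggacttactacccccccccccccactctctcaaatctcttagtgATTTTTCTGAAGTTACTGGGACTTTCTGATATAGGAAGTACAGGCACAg
Promoters of 5 of the 7 members were in the table, while those of Ms4a1 and Ms4a6d were not, so these were neither compared nor searched. Over 300 bases around the start site the Ms4a4b and Ms4a4c promoters were 73.8% identical, the highest of 170 pairs of Ms4a promoters compared, whose median was 50%. The Ms4a6b and Ms4a6c promoters were 52.3% identical over the window but shared a run of 48 bases, placed at -118 to -71 from the start site in Ms4a6b and at -49 to -2 in Ms4a6c. The core letters bound by PU.1, a myeloid and B cell factor, AGGAAGT, lay inside that run at -86 in Ms4a6b and at -17 in Ms4a6c. Searched on both strands, these letters occurred in 9.35% of 32851 mouse promoters of the same length, and the octamer ATGCAAAT, the letters read by POU factors, in 1.74%. The octamer was found at -170 on the minus strand of Ms4a4c and in no other member window searched, and AGGAAGT once more at -43 on the minus strand of Ms4a6b. A match of letters is a description of the window only, and the 2 motifs do not overlap.

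Across the 15 libraries the members differed in level per transcript length. Ms4a4b had the highest median at 45.2 TPM, followed by Ms4a4c at 27.95 TPM, Ms4a6b at 24.7 TPM, Ms4a6c at 22.35 TPM and Ms4a7 at 17.9 TPM. Ms4a6d at 10.8 TPM and Ms4a1 at 8.62 TPM were lowest. The order holds for the medians of TPM only, since ranges of neighbours overlapped widely, Ms4a4b running between 2.26 and 144 TPM and Ms4a1 between 1.35 and 36.6 TPM. No member was at 0 in any library, and the lowest expected count of a member was 55.0, for Ms4a4c.

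**Figure D1:**
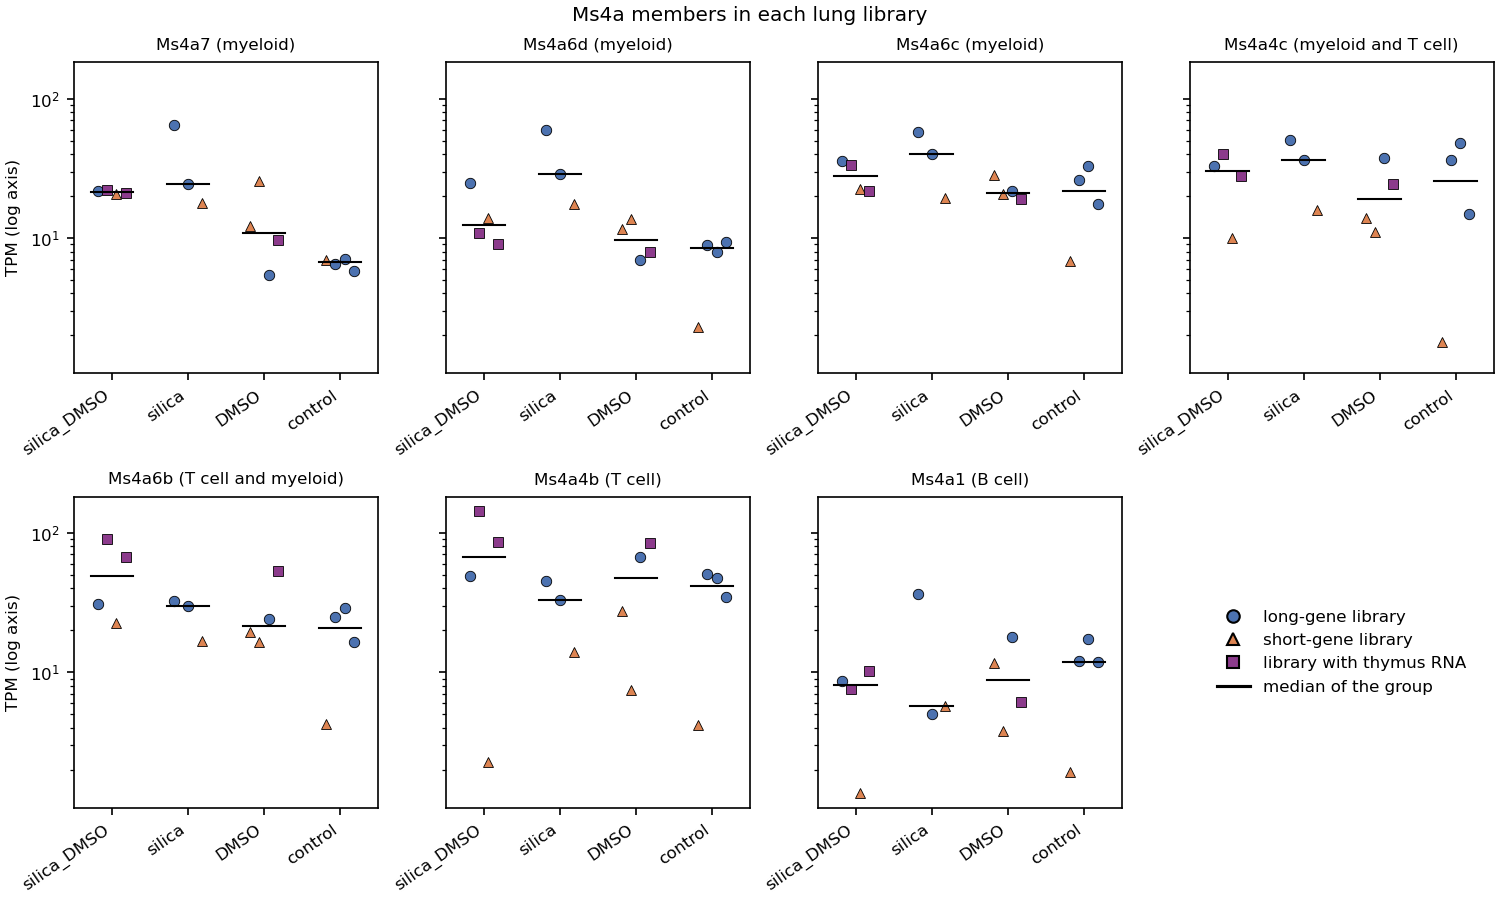
TPM (log axis) of each Ms4a member in each of 15 lung libraries, by group from silica_DMSO to control, with 1 point per library, the shape and colour giving the kind of library and the bar the group median. Ms4a7 lies between 20.5 and 22.1 TPM in the silica_DMSO libraries and between 5.77 and 7.10 TPM in the control libraries, and Ms4a4b lies at 84.3 to 144 TPM in the libraries with thymus RNA.

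Ms4a7, a member of tissue macrophages and of macrophages that enter inflamed tissue, was higher in TPM in the silica groups than in the controls. It was at 21.8, 22.1, 20.5 and 21.0 TPM in the silica_DMSO libraries, 64.7, 24.45 and 17.9 TPM in the silica libraries, 12.3, 25.8, 5.44 and 9.61 TPM in the DMSO libraries, and 6.95, 6.50, 7.10 and 5.77 TPM in the control libraries. The silica_DMSO libraries all lay above the 4 control libraries, as for 0.906% of 17879 genes, and so did the silica libraries, as for 2.72%. The DMSO libraries spanned silica and control levels, and silica 1 stood highest. The control libraries averaged 6.58 ± 0.60 TPM (SD, n = 4), against 21.4 ± 0.7 TPM (n = 4) in silica_DMSO and 35.7 ± 25.4 TPM (n = 3) in silica libraries. Within the long-gene libraries the values were 21.8 TPM in silica_DMSO 2 and 64.7 and 24.5 TPM in silica 1 and 2, against 5.44 TPM in DMSO 6 and 6.50, 7.10 and 5.77 TPM in the controls. Within the short-gene libraries they were 20.5 TPM in silica_DMSO 5 and 17.9 TPM in silica 7, against 12.3 and 25.8 TPM in DMSO 1 and 4 and 6.95 TPM in control 1. The close agreement of the silica_DMSO libraries belongs to the TPM scale: in CPM scaled by TMM (trimmed mean of M values, a scaling between libraries) the same 4 libraries held 18.2, 15.6, 86.8 and 16.3, against 5.50 to 9.52 in the controls. The TMM factor was 0.478 for silica_DMSO 5 and 0.616 for DMSO 4, against 0.898 to 1.24 for the other libraries. A low factor raises all TMM-scaled values of a library, and the fits use these factors. Without TMM, Ms4a7 was at 41.5 CPM in silica_DMSO 5, against 18.8 to 20.9 CPM in the rest of its group.

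Ms4a6d, carried by monocytes and macrophages and described in mouse macrophages as a partner of the receptor Vsig4, had the same order of groups at the silica end. It was at 24.6, 10.8, 13.99 and 9.11 TPM in the silica_DMSO libraries, 59.8, 29.0 and 17.5 TPM in the silica libraries, 11.5, 13.6, 7.01 and 7.89 TPM in the DMSO libraries, and 2.28, 8.90, 7.92 and 9.35 TPM in the control libraries. The silica libraries all lay above the controls, as for 2.72% of 17879 genes, whereas the silica_DMSO libraries overlapped them, through silica_DMSO 6. Of the silica_DMSO libraries the 2 without thymus RNA, at 24.6 and 14.0 TPM, lay above the controls as well, as for 1.76% of genes. The lowest value, 2.28 TPM, was in control 1, a short-gene library.

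Ms4a6c, another monocyte and macrophage member, varied less between groups. It was at 35.98, 33.2, 22.35 and 21.8 TPM in the silica_DMSO libraries, 57.9, 39.97 and 19.4 TPM in the silica libraries, 28.2, 20.6, 21.6 and 19.1 TPM in the DMSO libraries, and 6.85, 26.1, 33.1 and 17.65 TPM in the control libraries. The 3 silica libraries were spread over much of the range of all libraries and overlapped the controls in TPM. In TMM-scaled CPM they held 54.9, 49.4 and 36.5, against 10.5, 31.3, 30.5 and 20.2 in the controls, and all lay higher, as for 5.84% of genes.

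Ms4a4c, found on monocytes and on lymphocytes, is a close sequence relative of Ms4a4b but not close to it in level. It was at 32.6, 39.8, 9.99 and 27.95 TPM in the silica_DMSO libraries, 50.75, 36.03 and 15.96 TPM in the silica libraries, 13.9, 10.96, 37.7 and 24.5 TPM in the DMSO libraries, and 1.78, 36.2, 47.8 and 14.8 TPM in the control libraries. In TPM the values followed the kind of library: the 5 short-gene libraries held 1.78 to 15.96 TPM, against 14.8 to 50.75 TPM in the 7 long-gene libraries. The 3 thymus libraries, at 24.5 to 39.8 TPM, lay within the long-gene range. In TMM-scaled CPM this order was lost, with 3.23 to 54.4 in the short-gene libraries, 11.8 to 21.1 in the long-gene libraries and 8.83 to 13.7 in the thymus libraries. TPM and counts parted for this gene: silica 1 held 14.5 CPM and 50.75 TPM, and silica_DMSO 5 held 26.0 CPM and 9.99 TPM. For Ms4a7 the same libraries held 62.9 CPM and 64.7 TPM, and 41.5 CPM and 20.5 TPM. The reason was not tested, and the TPM order of Ms4a4c is limited by it.

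Ms4a6b, carried by T cells including regulatory T cells and by macrophages, was highest in TPM in the libraries with thymus RNA. It was at 30.75, 91.05, 22.4 and 66.95 TPM in the silica_DMSO libraries, 32.5, 29.9 and 16.9 TPM in the silica libraries, 19.3, 16.5, 23.9 and 53.1 TPM in the DMSO libraries, and 4.25, 24.7, 28.97 and 16.5 TPM in the control libraries. The 3 thymus libraries held 53.1 to 91.05 TPM, and the other 12 libraries held 4.25 to 32.5 TPM, with no overlap. Leaving them out, the silica_DMSO libraries were at 30.75 TPM and 22.4 TPM, inside the range of the other groups in TPM. In TMM-scaled CPM the order differed: silica_DMSO 5 was highest of all 15 libraries at 165, DMSO 4 held 97.7, and the thymus libraries held 77.9 to 121. Silica_DMSO 5 and DMSO 4 have the low TMM factors given above. In CPM without TMM the thymus libraries were highest, at 91.8 to 150, with silica_DMSO 5 at 78.8 and DMSO 4 at 60.2.

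Ms4a4b, also called Chandra, is a T cell member known in mice to dampen T cell proliferation and to associate with the receptor GITR (Tnfrsf18). It was at 49.45, 144, 2.26 and 85.5 TPM in the silica_DMSO libraries, 45.2, 33.2 and 13.9 TPM in the silica libraries, 27.7, 7.45, 66.75 and 84.3 TPM in the DMSO libraries, and 4.18, 50.4, 47.7 and 34.8 TPM in the control libraries. The thymus libraries were highest, at 84.3 to 144 TPM, followed by the long-gene libraries at 33.2 to 66.75 TPM and the short-gene libraries at 2.26 to 27.7 TPM, and these 3 ranges did not overlap. In TMM-scaled CPM the thymus libraries were again highest, at 61.1 to 96.8, while the long-gene libraries, at 31.3 to 59.3, overlapped the short-gene libraries, at 10.4 to 42.1. Its deposited length of 4750 bases is the longest of the 7 members. TPM and counts parted for Ms4a4b too: silica_DMSO 2 held 43.8 CPM and 49.45 TPM, and silica_DMSO 5 held 8.94 CPM and 2.26 TPM. The reason was not tested, and the TPM ranges of Ms4a4b by kind are limited by it. Groups overlapped in every pairing.

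Ms4a1 encodes CD20, the B cell surface protein targeted by therapeutic antibodies. It was at 8.62, 7.59, 1.35 and 10.1 TPM in the silica_DMSO libraries, 36.6, 5.03 and 5.75 TPM in the silica libraries, 11.6, 3.80, 17.8 and 6.10 TPM in the DMSO libraries, and 1.92, 12.04, 17.4 and 11.8 TPM in the control libraries. Silica 1 stood above all other libraries, and the remaining 2 silica libraries lay below 3 of the 4 controls. The thymus libraries, at 6.10 to 10.1 TPM, did not stand apart for this gene.

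In the fit of all 15 libraries (edgeR's quasi-likelihood test, Benjamini-Hochberg adjusted p under 0.05 as a call), 0 of the 7 members were called in any of 6 comparisons. These set silica, DMSO and silica_DMSO libraries each against control libraries, silica_DMSO against silica, then silica_DMSO against DMSO libraries, and tested the interaction of silica and DMSO. The background was 0% of 17879 genes tested in each of the 6, so the members' count says nothing about them. At an unadjusted p under 0.05 edgeR found 522, 1275, 3075, 1056, 305 and 297 genes in the 6 in that order, and DESeq2 called 44, 63, 985, 67, 1 and 8 genes. Leaving out the 3 thymus libraries, silica against control called 0.0113% of 17630 genes and no member.

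Silica against control had its largest member differences in the macrophage genes. The log2 fold change of Ms4a7 was 2.40 ± 0.86 (SE), and that of Ms4a6d was 2.33 ± 0.80. Ms4a6c followed with 1.02 ± 0.56. The T cell member Ms4a4b had -0.09 ± 0.54, Ms4a6b 0.58 ± 0.43, Ms4a4c 0.43 ± 0.59 and the B cell member Ms4a1 0.52 ± 0.59. Fitted on those 7 libraries alone, Ms4a7 and Ms4a6d were called, 2 of 7 members, where 0.249% of 16467 genes were called. In TPM both genes were higher in each silica library than in each control library, as were 2.72% of 17879 genes, and in TMM-scaled CPM 3 members were (with Ms4a6c), against 5.84% of genes. The median difference of the 7 members was 0.58, beside 0.00 over all genes tested. The Ms4a1 value rests on 1 library: without silica 1 it was -0.42.

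Lists of other macrophage and monocyte genes were set beside these differences. The interstitial macrophage list, 10 genes headed by the complement genes C1qa, C1qb and C1qc, summed to 1064 to 6593 TPM in silica libraries, against 834 to 1571 TPM in controls. Of its 10 genes 9 had positive log2 fold changes in silica against control, 0 were called over 15 libraries, and none was at 0 in either group. The 8 monocyte genes summed to 10082 to 22481 TPM in silica libraries, against 4254 to 10245 TPM in controls, with 8 of 8 fold changes positive and 0 called. The alveolar macrophage list, 10 genes found of 11 listed, summed to 889 to 1539 TPM in silica libraries, against 760 to 1155 TPM in controls. For each of these lists the silica and control ranges overlapped. The monocyte sum was 1096 to 3169 TPM in the thymus libraries, where the lung epithelial list was low too, and which cells carried it was not tested. The part of these lists in the values of Ms4a7 and Ms4a6d was not tested.

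Silica_DMSO against silica gave its most negative log2 fold change for Ms4a1, -1.0 ± 0.59, and its most positive for Ms4a6b, 1.17 ± 0.45. The Ms4a1 value rests on silica 1, without which it was -0.07. Ms4a7 had -0.06 ± 0.85 and Ms4a6d -0.43 ± 0.78, and without silica_DMSO 5 they were at -1.09 and -1.48. No member's libraries separated these groups in TPM, beside 0.313% of genes whose silica_DMSO libraries all lay higher. Ms4a4b had 0.95 ± 0.55 over 15 libraries and -0.01 ± 0.55 over the 12 without thymus RNA. Ms4a7 had the opposite sign in the smaller fit, with 0.56 ± 0.88 over 12 libraries.

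DMSO against control gave positive differences for all 7 members, beside a median of 0.14 over all genes tested in this comparison. Ms4a7 had 2.18 ± 0.82, Ms4a6d 1.53 ± 0.75 and Ms4a6b 1.12 ± 0.41. The remaining 4 lay between 0.50 for Ms4a1 and 0.77 for Ms4a6c, and the median of the 7 was 0.77. No member's DMSO libraries all lay above the controls in TPM, where 0.571% of genes did with all libraries and 1.07% without the thymus libraries. In TMM-scaled CPM 1 member did, Ms4a6b, beside 2.06% of genes, and 3 did without the thymus libraries (Ms4a6b, Ms4a4c and Ms4a1), beside 3.84% of genes. The Ms4a7 and Ms4a6d values rest on 1 short-gene library: without DMSO 4 they were 0.78 and 0.64.

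With DMSO in both groups, silica_DMSO against DMSO gave differences for the macrophage members whose sign depended on single libraries. Ms4a7 had 0.17 ± 0.79, Ms4a6d 0.37 ± 0.73 and Ms4a6c 0.07 ± 0.52. Leaving out 1 library at a time, Ms4a7 ran between -0.86 without silica_DMSO 5 and 1.57 without DMSO 4, and Ms4a6d between -0.69 and 1.27 without the same libraries. Ms4a1 was the only member with a negative value, -0.98 ± 0.56, over 15 libraries, and over 12 libraries Ms4a4b was negative too, at -0.62 ± 0.56. In TPM no member was higher in each silica_DMSO library than in each DMSO library with all libraries, beside 0.268% of genes, and Ms4a6d was without the thymus libraries, beside 1.88% of genes. In TMM-scaled CPM Ms4a6d overlapped there, and Ms4a1 was lower in both silica_DMSO libraries than in the 3 DMSO libraries, as were 4.81% of genes.

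The interaction, the silica difference with DMSO minus that without it, was -2.23 ± 1.16 for Ms4a7, -1.96 ± 1.08 for Ms4a6d and -1.50 ± 0.81 for Ms4a1. For Ms4a4c it was -0.09 ± 0.81 and for Ms4a6b 0.05 ± 0.59. Single libraries moved the 3 largest values: without DMSO 4 the value was -0.84 for Ms4a7 and -1.06 for Ms4a6d, without silica_DMSO 5 it was -3.02 for Ms4a6d, and without silica 1 it was -0.57 for Ms4a1. As 0% of all genes were called here, the fit does not say whether the silica difference of a member changed with DMSO.

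Silica_DMSO against control, a comparison added after the values were seen, gave 2.35 ± 0.83 for Ms4a7, 1.90 ± 0.76 for Ms4a6d and 1.75 ± 0.41 for Ms4a6b. Ms4a7 was higher in each silica_DMSO library than in each control library, as were 0.906% of genes. Without the thymus libraries 2 members were, Ms4a7 and Ms4a6d, beside 1.76% of genes. In TMM-scaled CPM 2 members were with all libraries (Ms4a7 and Ms4a6b), beside 3.32% of genes, and 4 without the thymus libraries (with Ms4a6d and Ms4a6c), beside 6.45% of genes. Over 12 libraries Ms4a6b had 1.69 ± 0.51, and without silica_DMSO 5 Ms4a7 was at 1.31 and Ms4a6d at 0.85. DESeq2 called 2 of 7 members here, Ms4a7 and Ms4a6b, where it called 5.51% of genes, and edgeR without silica_DMSO 2 called 1, Ms4a6b, where it called 11.0% of genes. With silica_DMSO 2 left out, 2 of the 3 remaining silica_DMSO libraries are thymus libraries. These comparisons share control or DMSO libraries with one another, so their values are not separate observations.

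**Figure D2:**
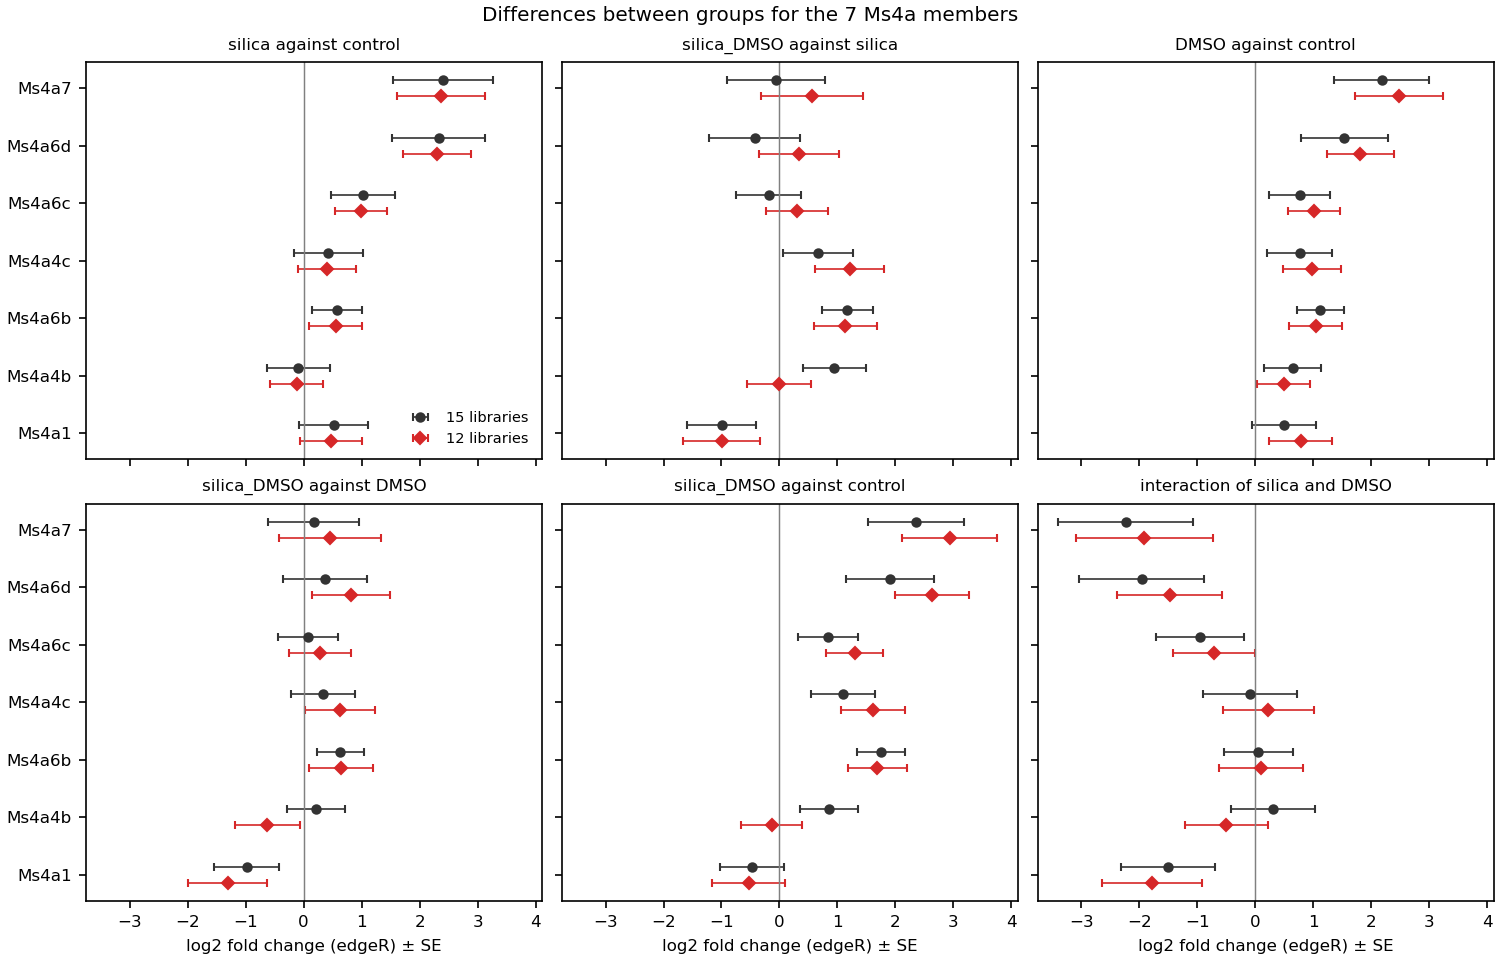
Log2 fold change ± SE of the 7 Ms4a members in 6 comparisons, from the fit of 15 libraries (circles) and of the 12 libraries without thymus RNA (diamonds). Ms4a7 and Ms4a6d are highest in silica against control, at 2.40 and 2.33 over 15 libraries, and Ms4a4b in silica_DMSO against silica is at 0.95 over 15 libraries and -0.01 over 12.

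Members were also set against the summed level of lists of lineage genes. Ms4a7 amounted to 0.86 to 3.60% of the summed TPM of the interstitial macrophage list in silica_DMSO libraries and 0.98 to 1.69% in silica libraries, against 0.51 to 2.59% in DMSO libraries and 0.45 to 0.83% in controls. The silica libraries did not overlap the controls for this share, which comes from the same TPM values as above. How many genes would part these groups in such a ratio was not counted. Ms4a4b amounted to 0.64 to 1.30% of the T cell list in the 3 thymus libraries, against 8.12 to 25.4% in 9 of the 12 others and 2.13 to 4.60% in silica_DMSO 5, DMSO 4 and control 1. So the summed T cell list was far higher in the thymus libraries than in the rest, and Ms4a4b was higher by a smaller factor. Ms4a1 amounted to 0.79 to 1.16% of the summed TPM of 15 B cell genes in the thymus libraries, against 1.03 to 3.73% in the long-gene libraries and 0.61 to 1.71% in the short-gene libraries, so these 3 ranges overlapped.

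**Figure D3:**
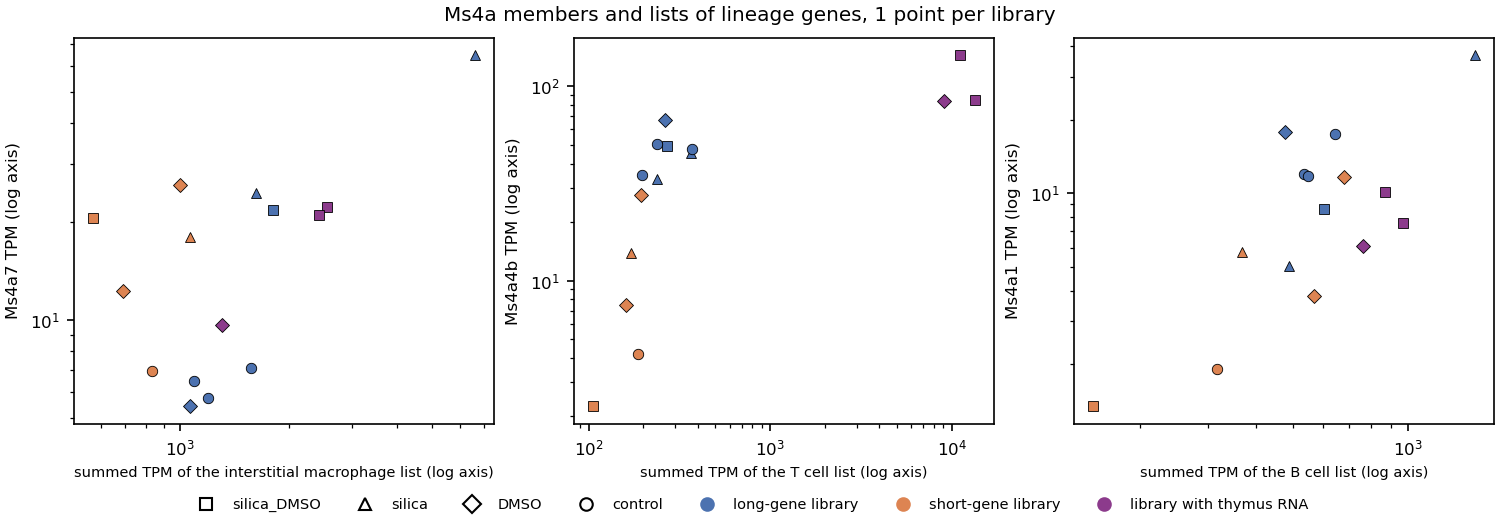
TPM of a member against the summed TPM of a list of lineage genes, both on log axes, with 1 point per library, the shape giving the group and the colour the kind of library. The 3 thymus libraries lie at 9037 to 13406 TPM of the T cell list with Ms4a4b at 84.3 to 144 TPM, and silica 1 has the highest Ms4a7, Ms4a1, interstitial macrophage and B cell values.

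The make-up of the family's transcripts differed between libraries. The 21 Ms4a genes summed to 53.55 TPM in control 1 and up to 391 TPM in silica 1, and the 7 members made up 52.7% to 96.2% of that sum. Ms4a7 made up 8.35 and 19.5% of the family in the silica_DMSO libraries without thymus RNA and 9.62 to 16.6% in silica libraries, against 2.36 to 22.1% in DMSO libraries without thymus RNA and 2.83 to 13.0% in controls. Ms4a6d made up 9.45 and 13.3% in those silica_DMSO libraries and 11.4 to 15.3% in silica libraries, against 3.04 to 11.6% in those DMSO libraries and 3.18 to 5.76% in controls. Thus the share of Ms4a6d in silica libraries did not overlap that in controls, while for Ms4a7 it did, through the short-gene library control 1. How many other genes would not overlap in such a share was not counted. In the thymus libraries Ms4a4b made up 33.9 to 39.6% and Ms4a6b 23.5 to 26.6% of the family.

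**Figure D4:**
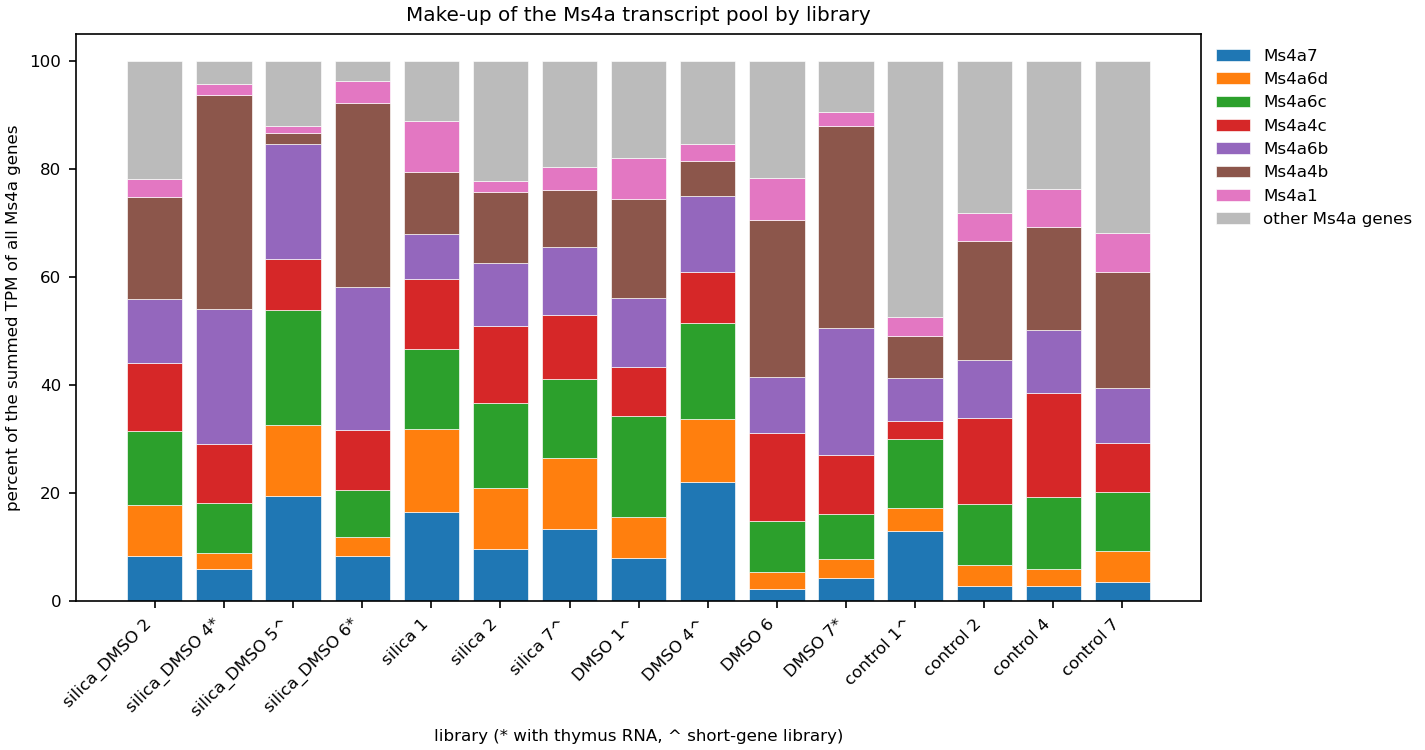
Percent of the summed TPM of 21 Ms4a genes held by each member in each library, with stacked bars that add to 100 percent; an asterisk marks thymus libraries and a caret short-gene libraries. Ms4a4b and Ms4a6b are widest in the thymus libraries, at 33.9 to 39.6% and 23.5 to 26.6%, and genes other than the 7 members are widest in control 1.

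Likeness of the members in level over the libraries was set beside their likeness in sequence. Over the 12 libraries without thymus RNA, Pearson's r of log2(CPM + 1) was 0.93 for Ms4a4c and Ms4a6b and 0.91 for Ms4a7 and Ms4a6d. It was 0.81 for Ms4a6d and Ms4a6c and 0.81 for Ms4a4b and Ms4a1. The sequence pairs had 0.47 for Ms4a4b and Ms4a4c, whose promoters are shown above, and 0.86 for Ms4a6b and Ms4a6c. Ms4a7 and Ms4a4b had -0.36. With all 15 libraries the value for Ms4a4c and Ms4a6b was 0.59 and that for Ms4a4b and Ms4a1 0.47, while Ms4a7 and Ms4a6d had 0.87. These are descriptions over libraries that share depth and gene-length composition, and group is among the things the libraries differ by.

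Among 14180 named genes the 3 most like each member over the 12 libraries were set by the same measure. Ms4a7 was closest to AA467197 (r = 0.99), then Clec4a2 and Acp5, the macrophage and osteoclast acid phosphatase. Ms4a6d was closest to the Fc receptor gene Fcgr3 (0.97), then the chemokine Ccl6 and Clec7a (Dectin-1), and Ms4a6c to the inflammasome receptor gene Naip2 (0.95), then Lair1 and Sirpb1c. Ms4a6b and Ms4a4c were closest to each other (0.93), and Phf11d was in the top 3 of both. Ms4a1 was closest to Cxcr5, the B cell homing receptor (0.93), then Rhoh and Ppp3cc. The T cell member Ms4a4b was closest to the zinc finger genes Zfp59 and Zfp418 (0.97 each) and to the polymerase gene Polk, and no gene of the T cell list was among its 3. Over all 15 libraries r was 0.98 for Ms4a7 and AA467197, 0.96 for Ms4a6d and Fcgr3, 0.95 for Ms4a6c and Naip2 and 0.93 for Ms4a1 and Cxcr5. Other pairs were far less alike there, at 0.62 for Ms4a7 and Acp5, 0.07 for Ms4a6b and Phf11d and -0.01 for Ms4a1 and Rhoh, and Ms4a4b and Zfp59 had 0.84.

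Of the 14 other Ms4a genes, 6 passed the filter on low counts, 5 had counts but did not pass, and 3 (Ms4a5, Ms4a13 and Ms4a19) were at 0 counts in all 15 libraries. The 5 were Ms4a3, Ms4a10, Ms4a12, Ms4a18 and Ms4a20, with at most 1.34 TPM. Ms4a10 was at 0.82 to 1.34 TPM in the thymus libraries, against at most 0.15 TPM elsewhere. Ms4a18 was at 0.09 to 0.65 TPM in the thymus libraries, against at most 0.16 TPM elsewhere. Of the 6, 0 were called in any of the 6 comparisons over 15 libraries.

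Ms4a4d was the most abundant of these, with 38.85, 4.26, 4.39 and 2.33 TPM in silica_DMSO libraries, 29.8, 28.7 and 14.4 TPM in silica libraries, 13.0, 6.67, 37.5 and 10.9 TPM in DMSO libraries and 15.7, 44.7, 41.5 and 40.2 TPM in controls. It was low in the thymus libraries, at 2.33 to 10.9 TPM, and in the short-gene libraries, at 4.39 to 15.7 TPM, against 28.7 to 44.7 TPM in the long-gene libraries. The 7 long-gene libraries did not overlap the other 8 for this gene, which is the reverse of the order that Ms4a4b took in the thymus libraries. Silica 1 and 2, at 29.8 and 28.7 TPM, lay below the 3 long-gene controls. Ms4a8a had 0.34 to 1.36 TPM in the thymus libraries and 5.38 to 15.8 TPM in the other 12. Ms4a4a, a macrophage member known as a partner of Dectin-1 in human macrophages, ran between 0 and 11.96 TPM with overlapping groups. Ms4a2, the beta chain of the high-affinity IgE receptor of mast cells and basophils, was at 0 to 0.34 TPM in silica_DMSO libraries and 0.12 to 0.74 TPM in silica libraries, against 0 to 1.54 TPM in DMSO libraries and 0.03 to 1.20 TPM in controls. Ms4a14 and Ms4a15 did not exceed 1.47 TPM.

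**Figure D5:**
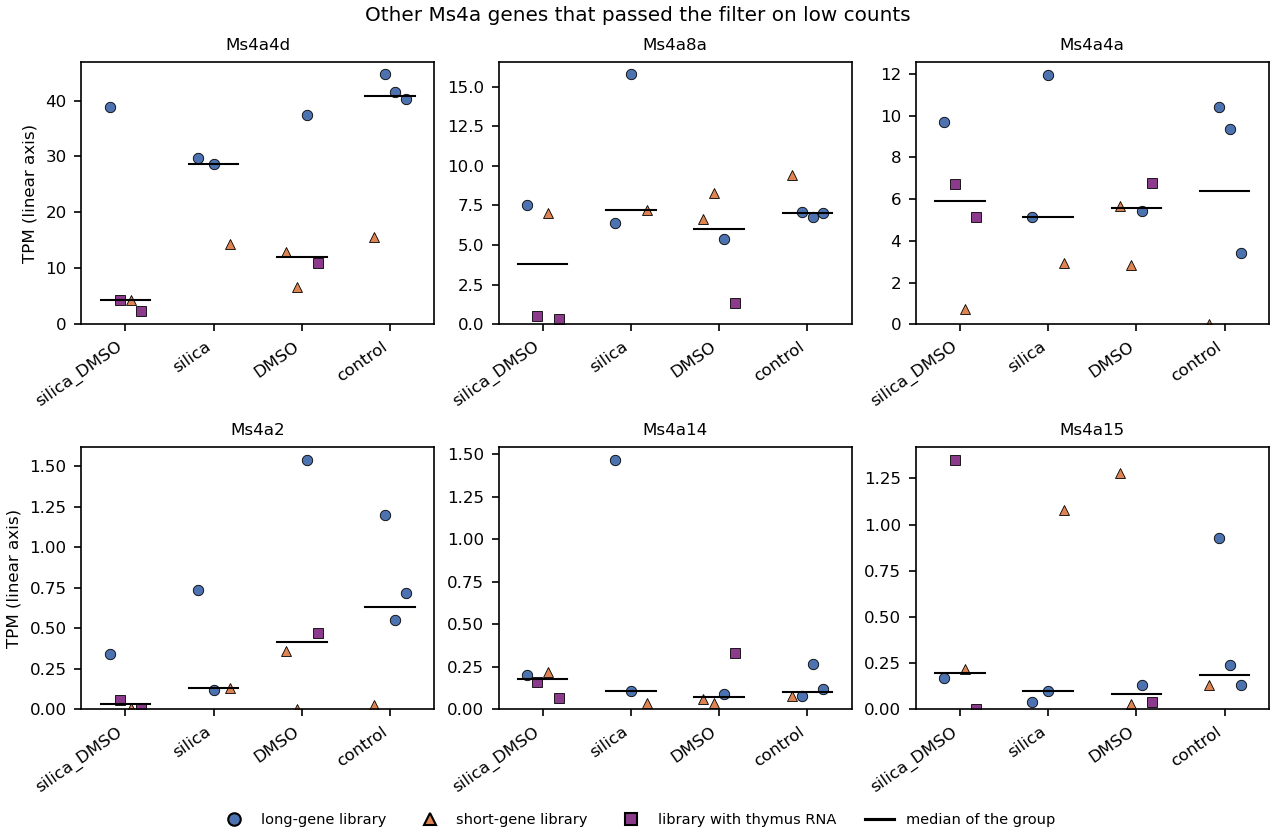
TPM (linear axis, a scale of its own in each panel) of the 6 other Ms4a genes that passed the filter, by group from silica_DMSO to control, with 1 point per library, the shape and colour giving the kind of library and the bar the group median. Ms4a4d is at 28.7 to 44.7 TPM in the long-gene libraries and at 2.33 to 15.7 TPM in the other 8.

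Genes of proteins known to work with Ms4a proteins, or only to signal beside them, were taken as a list of 16 genes, the partner list, of which 15 were tested. The list is loose, holding kinases such as Btk and the sensor Nlrp3 beside receptors and adaptors. In silica against control 14 of 15 had positive log2 fold changes, with a median of 0.72 beside 0.00 over all genes, and 0 were called. Clec7a, the beta-glucan receptor, was at 93.1 to 360 TPM in silica libraries, against 10.7 to 36.5 TPM in controls, with a log2 fold change of 2.62 ± 0.92. Tyrobp, the adaptor of Trem2, was at 266 to 440 TPM in silica libraries, against 94.1 to 203 TPM in controls, with 1.36 ± 0.94. Fcer1g, the shared gamma chain of Fc receptors, had 1.06 ± 0.53 and the B cell co-receptor gene Cd81 -0.22 ± 0.40. With silica and control libraries fitted alone 2 genes of the list were called, Clec7a and Trem2, where 0.249% of 16467 genes were called. In silica_DMSO against silica 6 of 15 were positive, with a median of -0.24 beside 0.05 over all genes, and in DMSO against control 9 of 15, with a median of 0.21.

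A list of 12 transcription factors of these lineages had 7 of 12 positive log2 fold changes in silica against control, with a median of 0.52 beside 0.00 over all genes, and 0 called. Spi1, which encodes PU.1, was at 28.3 to 68.9 TPM in silica libraries, against 10.8 to 42.65 TPM in controls, with a log2 fold change of 0.97 ± 0.42. Irf7, of the interferon response, was at 13.2 to 42.7 TPM in silica libraries, against 8.60 to 21.8 TPM in controls, with 1.10 ± 0.79. The T cell factors Tcf7 and Lef1 had -0.29 ± 1.65 and -1.20 ± 1.44. Tcf7 ran up to 1210 TPM in silica_DMSO libraries and 1117 TPM in DMSO libraries, where the highest values belong to thymus libraries, against at most 19.98 TPM in silica libraries and 27.6 TPM in controls. In silica_DMSO against silica 6 of 12 were positive with 0 called.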

How the data were processed

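RNA of mouse lung was sequenced in 15 libraries, and 2 tables were used. Per the file headers, 1 table gives expected counts per gene and library, as deposited by the authors, and 20.1% to 24.2% of a library's nonzero values are not whole. The other gives TPM, also computed by the authors, and 8 columns of group means were left aside. The deposited gene length, an other value in bases, served for the length classes. Bowtie 0.12.2 and build mm8 are named in the submitters' processing notes, and how counts were estimated is not given there. Extraction notes in the labels speak of retinas, the tissue field of lung.

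The 7 members and the gene lists were chosen with earlier results of these data known. Members were matched by gene name. Named besides them were the other Ms4a genes, the 3 genes of highest correlation with each member, and the 4 genes of highest mean TPM of the partner and factor lists. A list of naive T cell genes and 1 transcription factor are not reported here. Expected counts were rounded (library totals moved by 53.9 counts or less), filtered (edgeR filterByExpr, smallest count 10, smallest total 15), scaled by TMM and fitted with 4 group means by edgeR 4.0.16 (quasi-likelihood, robust) in R 4.3.3. The test was run on simulated data with known changes, at the measured dispersion and at that dispersion divided by 4. The fold changes were recovered in both, but at the measured dispersion most genes given the smaller of the known changes were not called. Alternatives were DESeq2 1.42.0, limma 3.58.1 on log2(TPM + 1) and log2(TPM + 0.1), no filter, a gene-length offset, fewer libraries and a replicate block. The labels do not say that libraries of a group came from separate mice, so calls reflect the spread between libraries, which may be technical. Figures were drawn with matplotlib 3.10.9 in Python 3.11.15, and promoters aligned with Biopython 1.88.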

Additional observations from a re-analysis of the deposited data

How the results depend on the processing

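Over 15 libraries 0 members were called in each of the 6 comparisons. The count was 2 in silica against control when only those 7 libraries were fitted, and in silica_DMSO against control it was 2 with DESeq2 and 1 without silica_DMSO replicate 2. Leaving out 1 library at a time gave 0 to 0 members called in the other 5 comparisons and 0 to 1 in silica_DMSO against control. With replicate number as a block 0 members were called in each comparison. Of 13 same-numbered pairs, correlations of deviations from group means ran between -0.49 and 0.27, 4 were over 0.1, and 0 libraries matched their own number best. Libraries of 1 number can differ in kind: silica_DMSO 4 is a thymus, DMSO 4 a short-gene and control 4 a long-gene library. The check therefore cannot decide whether the numbers pair libraries. Of 1043 log2 fold changes of members under 25 alternatives, 981 kept their sign and 22 moved by at least 1 SD within groups. Ms4a7 in silica against control ranged from 2.01 to 2.62 and Ms4a6d from 2.10 to 2.51, whereas Ms4a7 in DMSO against control ranged from 0.72 to 2.52. The cause of these moves was not tested. The SD of log2 values within groups was 0.60 for Ms4a6b to 1.17 for Ms4a7, and differences under it are hard to see with 3 or 4 libraries a group. Larger ones were not called over 15 libraries either, such as 2.40 for Ms4a7 in silica against control. The same held for 1.75 for Ms4a6b in silica_DMSO against control. A difference not called is therefore not shown to be absent. In groups of 4, 21 sets of member values in TPM were searched for a library far from the rest, and 0 were found, where chance gives about 1 in 20. The silica group, with 3 libraries, was not searched, nor was TMM-scaled CPM, the scale of the fits. On that scale silica_DMSO 5 held 86.8 for Ms4a7, against 15.6 to 18.2 in the rest of its group. The TMM factor of silica_DMSO 5 was 0.478, the lowest of all libraries.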
